A study of Rattus norvegicus with 3 samples.

Results

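The genes described here encode calcium and sodium channel subunits, transient receptor potential (TRP) channels and the calcium release channels of intracellular stores. They were taken by symbol: names that start with Cacn, Trpc, Trpm or Trpv, or with Scn, Ryr or Itpr followed by a digit. Of 14217 genes with a probe set of a single annotated symbol, 58 met this rule, through 81 probe sets. Each gene was represented by the probe set with the highest mean over the 7-day array and 1-day array b. One of them, Trpc4ap, encodes a protein that binds a Trpc channel and is no channel itself. RNA labelled as adrenal medulla came from rats kept in the cold for 7 days (1 array) or for 1 day (2 arrays, a and b). The labels used here give no strain, sex, age or temperature. They leave unsaid whether arrays a and b are separate animals, and their spread may be technical. Rats without cold exposure were not analysed here.

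Chromaffin cells of the adrenal medulla are excitable. Acetylcholine from the splanchnic nerve depolarises them, sodium channels carry the action potential, and calcium that enters through voltage-gated calcium channels triggers the release of adrenaline and noradrenaline. A voltage-gated calcium channel consists of a pore subunit with alpha2delta and beta subunits that set its trafficking and gating. Sodium channels pair a pore subunit with small beta subunits. TRP channels pass cations in response to lipids, temperature, ligands or store depletion, and ryanodine and inositol trisphosphate receptors let calcium out of the endoplasmic reticulum.

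The values are linear intensities that the authors had already summarised and scaled, and differences are given on the log2(intensity + 16) scale. The table has no detection call for a probe set. A gene is called brighter here when its mean over the 7-day array and 1-day array b was at or above the median of all 31042 gene probe sets (an intensity of 614), and dimmer otherwise. By this measure 24 of the 58 channel genes (41.4%) were brighter, against 66.1% of all genes.

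The 1-day arrays differed from each other more than either did from the 7-day array. Across gene probe sets the Spearman correlation was 0.939 between the 7-day array and 1-day array b, 0.684 between the 7-day array and 1-day array a, and 0.664 between the 1-day arrays. Over the 58 channel genes these values were 0.896, 0.607 and 0.534. They are descriptions across probe sets, which share the arrays. Beta-actin at its 3′ end read 8.87 times the value at its 5′ end on the 7-day array, against 231 times on 1-day array a and 6.11 times on 1-day array b. The 18 spike-in control probe sets had a geometric mean of 21788, against 187534 and 16829 on arrays a and b. The part of RNA quality in the channel values was not tested. Of the 58 channel genes, 40 were at least 2-fold apart between the 1-day arrays (53% of all genes were), with 32 higher on array a (34.3% of all genes) and 8 lower on array a (18.7%). Values against each 1-day array are therefore given side by side.

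The labelled tissue was checked against its markers. All 12 measured chromaffin cell markers were brighter, and so were all 8 measured adrenal cortex markers. The 8 cortex markers each read higher on the 7-day array than on 1-day array b (median log2 difference 0.38), with a summed intensity of 1348883 at 7 days, against 1914147 on 1-day array a and 1029612 on 1-day array b. The chromaffin markers split 6 higher and 6 lower against array b (median 0.08). In a piece of tissue, fewer cells of a type and less RNA per cell cannot be told apart.

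Setting 7 days of cold against 1 day asks which channel genes differ with the length of exposure. No channel gene passed in limma on the 3 arrays. Of 31042 probe sets, 0 had an adjusted p under 0.05 (percent called 0). Among the 58 channel genes 0 had an unadjusted p under 0.05, against 62 probe sets over the whole table, and the lowest was 0.175, for Trpv6. The fit has 1 residual degree of freedom, from the 1-day pair. With the roles exchanged, so that 1-day array a stood alone against the other 2 arrays, limma called 27 of the 58 channel genes, 21 higher and 6 lower on that array, where 49.9% of all probe sets were called. With 1-day array b alone instead, it called 0 of the 58 and 0 of all probe sets (163 had an unadjusted p under 0.05).

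Against 1-day array b alone, where 1 array stands on each side and there is no test, the brighter channel genes lay close to 0 and mostly a little below it. Of the 24 brighter genes, 9 read higher on the 7-day array than on 1-day array b (48.1% of all brighter genes did) and 15 read lower (51.9%). Their median was -0.11, and that of all brighter genes was -0.01. The lowest was Scn3a at -0.70 and the highest Cacng2 at 0.79, and 0 of 24 was at least 2-fold apart in either direction (0.511% of brighter genes were higher and 0.447% lower). Under median centring of the arrays the split was 5 higher and 19 lower, and that of all brighter genes 2250 and 7148. Against 1-day array a the same 24 genes had a median of -0.71, and all brighter genes one of 0.18.

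The 34 dimmer channel genes spread far more widely. Of them, 25 read higher than 1-day array b (64.9% of all dimmer genes did) and 9 lower (35.1%), with a median of 0.71, and 0.39 for all dimmer genes. The split was 20 and 14 under quantile normalisation (2390 and 2429 of all dimmer genes) and 19 and 15 with the intensity trend removed (2431 and 2388). At least 2-fold higher were 12 of 34 (28.4% of all dimmer genes) and at least 2-fold lower 4 of 34 (12.9%). Over all 58 channel genes these counts are 12 higher (9.98% of all genes) and 4 lower (4.68%). Quantile normalisation gave 6 genes at least 2-fold higher, subtraction of a loess fit on intensity gave 7, and each gave 5 lower. Shares of all genes under these scalings are not given here. In the probe sets of the second-dimmest of 10 brightness bins, 72.5% were at least 2-fold apart between these 2 arrays, and in the brightest bin 0.290%. Folds of the dimmer channel genes are read against that spread. Against 1-day array a, 26 of the 34 read lower (median -1.66), as did 3987 of all 4819 dimmer genes (median -1.75).

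**Figure D1:**
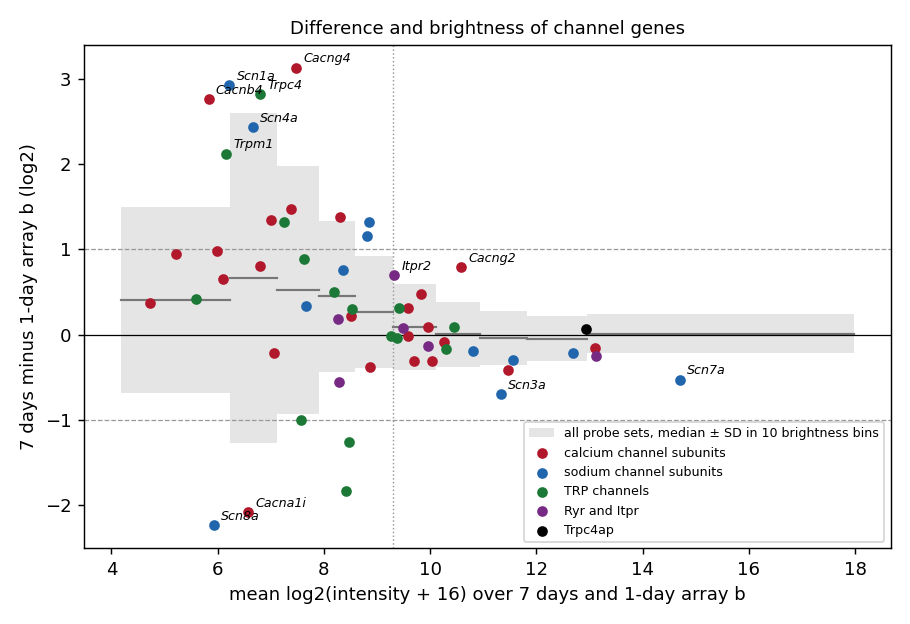
Difference between the 7-day array and 1-day array b (log2) against mean log2(intensity + 16) of the same arrays, for the 58 channel genes by class (points). Grey boxes give the median ± SD of all probe sets in each of 10 brightness bins, dashed lines a 2-fold difference and the dotted line the median of the table; channel genes past 2-fold all lie left of it.

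For the brighter channel genes at the ends of that range, Scn3a and Scn7a (lowest) and Cacng2 and Itpr2 (highest), the 250 bases before the annotated start are shown, since they hold the sequence next to which transcription of the genes that differed most begins. They are RefSeq promoter sequences of build GRCr8, all on the minus strand, written 5′ to 3′ in the direction of the gene. Scn3a lies at chr3:70666199-70666448, Scn7a at chr3:71846285-71846534, Cacng2 at chr7:111577758-111578007 and Itpr2 at chr4:181134868-181135117. Capitals mark matches, on either strand, to 4 motifs: the TATA box, spelled TATAAA; the GC box, spelled GGGCGG; the cAMP response element, spelled TGACGTCA; and the AP-1 site, spelled TGANTCA.
Scn3a: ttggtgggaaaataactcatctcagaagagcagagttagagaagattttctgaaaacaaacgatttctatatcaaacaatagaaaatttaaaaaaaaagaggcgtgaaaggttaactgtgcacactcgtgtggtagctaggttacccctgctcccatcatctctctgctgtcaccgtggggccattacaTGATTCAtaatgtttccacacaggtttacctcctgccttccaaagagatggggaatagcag
Scn7a: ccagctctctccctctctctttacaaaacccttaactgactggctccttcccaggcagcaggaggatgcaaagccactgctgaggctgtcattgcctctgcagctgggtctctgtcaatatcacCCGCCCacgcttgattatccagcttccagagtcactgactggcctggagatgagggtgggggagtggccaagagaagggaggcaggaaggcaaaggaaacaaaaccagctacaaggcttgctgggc
Cacng2: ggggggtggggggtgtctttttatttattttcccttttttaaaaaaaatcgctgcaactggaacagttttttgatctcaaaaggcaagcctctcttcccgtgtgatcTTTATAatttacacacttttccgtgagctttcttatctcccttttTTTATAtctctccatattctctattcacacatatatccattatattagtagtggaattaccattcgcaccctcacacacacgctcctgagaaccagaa
Itpr2: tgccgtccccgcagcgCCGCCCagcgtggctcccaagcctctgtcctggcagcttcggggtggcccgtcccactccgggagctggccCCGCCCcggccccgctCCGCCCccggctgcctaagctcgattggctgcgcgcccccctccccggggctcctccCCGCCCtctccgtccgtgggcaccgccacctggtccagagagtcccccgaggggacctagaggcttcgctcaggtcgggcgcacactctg

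The promoters differed in composition. GC content was 41.6% for Scn3a, 56.0% for Scn7a, 38.4% for Cacng2 and 76.0% for Itpr2, against a median of 52.0% over 27457 rat promoters of that length. Scn3a held 1 AP-1 match, starting 61 bases before the start site, Scn7a 1 GC box, Cacng2 2 TATA matches and Itpr2 4 GC boxes. Of the 58 channel genes 47 matched the promoter table. A GC box stood in 21 of 47, of which 13 were among the 21 brighter genes matched, and in 32.4% of all promoters. The median GC content was 60.0% over the 47, 63.2% over the brighter and 57.0% over the dimmer genes among them, above the 52.0% of all promoters, and its part in the GC box share was not tested. A TATA match stood in 3 of 47 (13.1% of all), an AP-1 match in 1 of 47 (6.36%) and a cAMP response element in 0 of 47 (1.70%). These are matches of letters and not measured binding sites.

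Pore subunits of voltage-gated calcium channels were represented by 10 genes, 5 brighter and 5 dimmer. Cacna1d, an L-type pore subunit that chromaffin cells use for pacemaking, read 1169 on the 7-day array, against 546 on 1-day array a and 1243 on 1-day array b. Cacna1c, the other L-type pore of heart, vessels and endocrine cells, read 736, against 135 and 912. The P/Q-type gene Cacna1a, of nerve endings, read 843 at 7 days, against 2330 on array a and 676 on array b. On these probe sets all 3 lay between the 1-day values. Cacna1b, the N-type pore, read 745, against 1299 and 754, and the T-type gene Cacna1h read 928, against 1126 and 1157. These 2 lay below both 1-day arrays, Cacna1b by only -0.02 (log2) from array b. Cacna1h was one of the few on which the 1-day arrays were close, and stood at -0.31 against array b and -0.27 against array a (limma -0.29 ± 1.67, SE, adjusted p = 1.00).

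Other probe sets of several pore genes differed from these values in sign. A second Cacna1h probe set read 560, against 3192 and 397, a difference of 0.48 from array b, and a second Cacna1d probe set stood at 0.61. Other Cacna1a probe sets, all dimmer, stood at -0.33, -1.05, -0.26 and 2.49 from array b. Those with negative values lay below both 1-day arrays. A second Cacna1c probe set, also dimmer, lay above both, at 1.55 from array b and 1.47 from array a. With a gene's probe sets averaged, Cacna1b, Cacna1c, Cacna1d and Cacna1h turned to 0.07, 0.62, 0.07 and 0.08 against array b.

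The dimmer pore subunits included the T-type genes Cacna1g and Cacna1i. Cacna1i read 30.2 on the 7-day array, against 226 and 180 on 1-day arrays a and b, at least 2-fold below both (-2.08 from array b). A second Cacna1i probe set stood at -0.54 from array b. Cacna1g read 69.7, against 398 and 38.5, and Cacna1e, the R-type pore, 73.8, against 1375 and 29.5. The retinal L-type gene Cacna1f read 131, above 109 and 68.3. Cacna1s, the L-type pore of skeletal muscle, read 35.5, against 309 and 10.7. Of 9 skeletal muscle markers, 2 of them brighter, 7 read higher than on 1-day array b, with a median of 0.43, where all dimmer genes had one of 0.39. Against array a 6 of the 9 read lower, with a median of -2.62, where all dimmer genes had one of -1.75. The part of muscle RNA in the values of Cacna1s was not tested.

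Among auxiliary subunits, Cacna2d1, the alpha2delta protein to which gabapentin binds, read 8322 at 7 days, against 3582 on 1-day array a and 9299 on 1-day array b. Its difference of -0.16 from array b lay within the spread of its brightness bin (median 0.01, SD 0.23). Cacna2d3 was dimmer, at 392, against 2183 and 514. Cacnb2, a beta subunit that brings the pore to the cell surface, read 2449, against 4092 and 3269, below both 1-day arrays (-0.41 from b and -0.74 from a). Its 3 probe sets all read lower than on array b (-0.41, -0.13 and -0.93). Cacnb1, the beta subunit of skeletal muscle, read 1050, against 4254 and 752, with a second probe set also higher than array b (0.17). Cacnb3, abundant in neurons and endocrine cells, read 1015, against 3299 and 950, and its 0.09 turned to -0.09 with median centring. Cacnb4 was dim, at 132, against 85.3 and 5.94, and lay above both.

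The gamma subunit genes formed the group with the highest median against 1-day array b. In 7 of 8 the 7-day value was higher than on array b, with a median of 1.06, but 7 of the 8 genes were dimmer, a part of the table in which all genes had a median of 0.39. The brighter one was Cacng2, which encodes stargazin, a partner of AMPA receptors, at 2006 on the 7-day array, against 9183 on array a and 1155 on array b. Its second probe set read 43.3, against 1042 and 19.2, so that both stood higher than array b (0.79 and 0.75) and lower than array a. Cacng7 (493, against 250 and 180) and Cacng8 (260, against 158 and 83.7) lay above both 1-day arrays. Cacng4 had the highest difference of the 58 genes, with 510 on the 7-day array, against 1046 on array a and 44.2 on array b (3.13). Cacng5 read 188, against 973 and 64.4 (1.34 from array b), and Cacng1, of skeletal muscle, 14.0, against 223 and 7.25 (0.37). Cacng3 read 377, against 416 and 322 (0.22), and Cacng6 108, against 746 and 128 (-0.22). All 4 were lower than array a. Cacng3 turned to -0.15 with quantile normalisation, and Cacng1 to -0.03 with the intensity trend removed. The whole group had a median of -1.60 against array a.

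**Figure D2:**
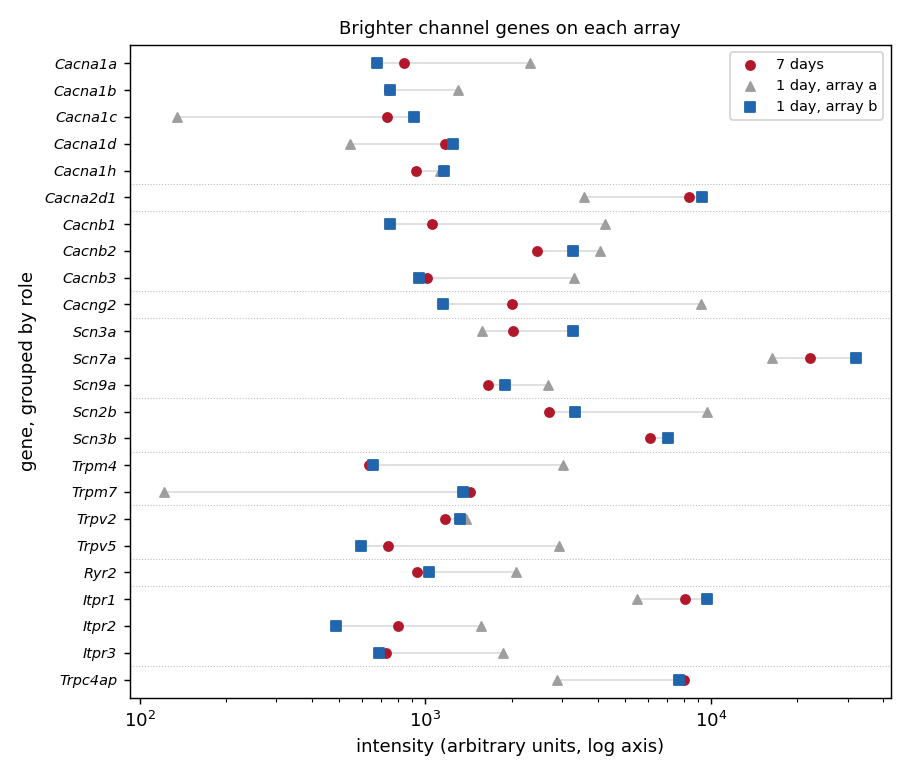
Intensity (log axis) of the 24 brighter channel genes on the 7-day array (circles) and on 1-day arrays a (triangles) and b (squares), grouped by role. The 7-day and array b marks sit close together, as for Trpm7 (1432 and 1350), while array a stands apart for most genes.

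The lowest 2 differences from array b among the brighter genes were of sodium channel genes. Scn3a, a pore subunit of embryonic neurons that rat chromaffin cells also use, read 2016 on the 7-day array, against 1572 on 1-day array a and 3282 on 1-day array b. Scn7a, which encodes a sodium-sensing channel of glia and other cells, read 22198, against 16250 and 32045. Both lay between the 1-day arrays, so each was lower than array b (-0.70 and -0.53) and higher than array a (0.36 and 0.45). Their brightness bins had an SD of 0.32 and 0.23 in that difference. Under quantile normalisation, median centring and removal of the intensity trend Scn3a stayed between -0.88 and -0.55 and Scn7a between -0.71 and -0.52 against array b. Of 6 measured Schwann and sustentacular cell markers, 4 read higher and 2 lower than on array b (median 0.09), with a summed intensity of 39408 at 7 days, against 29138 on array a and 40823 on array b. Smooth muscle and pericyte markers read lower than array b in 6 of 7 (median -0.17) and higher than array a in 5 of 7 (median 0.44). Their part in the value of Scn7a was not tested.

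Scn9a, the pore subunit of sensory and sympathetic neurons that is also a main one of chromaffin cells, read 1650 at 7 days, against 2673 and 1895 on arrays a and b. The beta subunit genes Scn2b (2696, against 9668 and 3324) and Scn3b (6085, against 6971 and 7054) are adhesion-like partners of the pore. All 3 lay below both 1-day arrays. Scn3b was nearly the same on the 1-day arrays, with 7 days at -0.20 from array a and -0.21 from array b, and its second probe set stood at -0.01 and -0.13. In limma the 3 were at -0.44 ± 1.17, -1.07 ± 0.90 and -0.20 ± 0.85 (SE), none past the threshold. All 5 brighter sodium channel genes read lower on the 7-day array than on 1-day array b (51.9% of all brighter genes did). The sign of each was the same under the 4 scalings, but under median centring 7148 of 9398 brighter genes read lower. Scn3a and Scn7a read higher than array a.

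The remaining sodium channel genes were dim. The brain pore genes Scn1a (189, against 2950 and 11.0) and Scn2a (212, against 1322 and 164) lay between the 1-day arrays. So did Scn4a, of skeletal muscle (220, against 686 and 27.7), and Scn10a (708, against 908 and 275) and Scn11a (653, against 839 and 284), of pain-sensing neurons. Scn8a, a pore of the axon initial segment, read 12.0, against 444 and 116, and was at least 2-fold below both (-2.24 from array b and -4.04 from array a). Scn4b read 413, against 1293 and 238. Scn2a turned to -0.18 with quantile normalisation from 0.34.

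TRP channel genes were mostly dim, with 4 of 15 in the brighter part. Trpm7, a ubiquitous channel with a kinase domain that carries magnesium and calcium, read 1432 on the 7-day array, against 122 on 1-day array a and 1350 on 1-day array b. Its second probe set read 550, against 89.4 and 941, so the 2 probe sets disagreed in sign against array b (0.08 and -0.76). The first turned to -0.10 with median centring. Trpm4, a calcium-activated cation channel, read 637, against 3019 and 657. Trpv2, a channel of neurons and immune cells, read 1174, against 1381 and 1318, and was the TRP gene with the closest 1-day values. It stood at -0.16 from array b and -0.23 from array a. Macrophage and lymphocyte markers read lower than on array b in 6 of 7 (median -0.46) and higher than on array a in 5 of 7 (median 0.21). Their part in the values of Trpv2 was not tested. Trpv5, a calcium uptake channel of the kidney, read 741, against 2930 and 595.

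Trpv6, the calcium uptake channel of gut and placenta, was at least 2-fold below both 1-day arrays, with 214 on the 7-day array, against 4152 on array a and 535 on array b. Limma put it at -2.72 ± 2.01 (SE) relative to both 1-day arrays, with an adjusted p of 1.00. Trpv6, Cacna1i and Scn8a were the 3 channel genes with such a difference below both (3.95% of all genes were), and 0 stood at least 2-fold above both (0.872%). All 3 are dimmer genes, of which 11.4% met the rule below and 2.39% above, while 0 of 24 brighter genes met it below (0.16% of all brighter genes) or above (0.0958%).

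Trpm8, the cold and menthol receptor of sensory neurons, read 39.9 on the 7-day array, against 361 and 25.9. Its difference of 0.42 from array b turned to -0.07 with quantile normalisation. Trpv1, the heat and capsaicin receptor, read 119, against 224 and 254, below both. Its other probe sets stood at 1.58 and 0.66 from array b, so that the mean of all 3 was 0.41, above array b where the first alone was below it. Trpv4, a channel of warmth and osmotic stretch, read 329, above 195 and 228. Trpm3 read 254, against 1392 and 130, and Trpm1, of retinal bipolar cells, 132, against 2787 and 18.1.

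Among Trpc genes, which encode receptor-operated cation channels, Trpc1 read 597 on the 7-day array, against 1999 and 607, just under the median of the table. Trpc5 read 225, above 129 and 80.2. Trpc4 read 280, against 1874 and 26.0, and Trpc6, of smooth muscle and kidney, 392, against 603 and 315, which turned to -0.07 against array b with quantile normalisation. Trpc2, which serves pheromone sensing in rodents, read 165, against 206 and 630, with its second probe set at 0.18 from array b where the first stood at -1.83. Trpc4ap, the binding protein, read 8030, against 2877 and 7686, and its 0.06 became -0.12 with median centring.

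**Figure D3:**
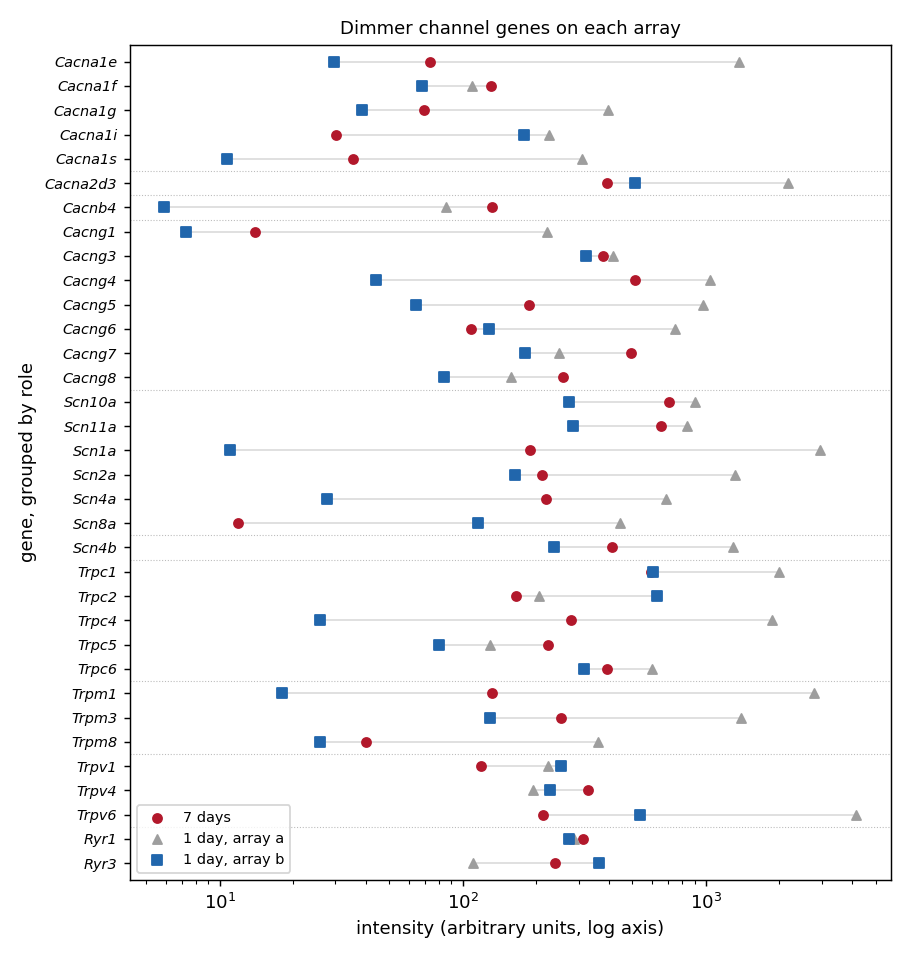
Intensity (log axis) of the 34 dimmer channel genes on the 7-day array (circles) and on 1-day arrays a (triangles) and b (squares), grouped by role. Values from 5.94 to 4152 are shown; array a holds the highest value of most genes, with Trpv6 at the right-hand end.

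Store release channels comprised 3 inositol trisphosphate receptors, all brighter, and 3 ryanodine receptors, of which 1 was brighter. Itpr1, the inositol trisphosphate receptor of neurons, read 8105 on the 7-day array, against 5481 on 1-day array a and 9676 on 1-day array b. Itpr2, common in liver and heart, read 800, against 1563 and 487, and Itpr3, of epithelia and endocrine cells, read 726, against 1871 and 686. All 3 lay between the 1-day arrays. Itpr2 read higher than array b on both probe sets (0.70 and 0.61). Itpr3 changed sign with each of the 3 other scalings (0.08, against -0.04 to -0.10), and Itpr1 stood at -0.26 with no change of sign. Of the ryanodine receptors, Ryr2, of heart and neurons, read 934, against 2075 and 1029, but its second probe set stood at 0.40 from array b where the first stood at -0.14. Ryr1, of skeletal muscle, read 314, against 288 and 275, a difference of 0.18 that turned to -0.25 with quantile normalisation. Ryr3 read 241, against 110 and 363.

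Over both 1-day arrays, 9 of the 58 channel genes read above both at 7 days (22.7% of all genes did), 17 below both (25.8%) and 32 between. Among the 34 dimmer genes 7 lay above both (13.6% of all dimmer genes) and 8 below both (31.4%). Among the 24 brighter genes these were 2 above (27.4% of brighter genes) and 9 below (22.9%). The 9 were Cacna1b, Cacna1h, Cacnb2, Scn9a, Scn2b, Scn3b, Trpm4, Trpv2 and Ryr2, and the 2 were Trpm7 and Trpc4ap. The median difference from the averaged 1-day values was -0.43 over the 58 genes and -0.05 over all genes, of which a larger share was brighter. Over the brighter genes it was -0.35 for channel genes and 0.09 for all. Over the dimmer genes it was -0.47 for channel genes and -0.61 for all. With each array centred on its median, that of the 58 genes moved to 0.08. Centring shifts every gene by the same amount, so it cannot change the gap between the 58 genes and all genes. Quantile normalisation brought the median of the 58 genes to -0.20, and removal of the intensity trend to -0.03. The medians of all genes under those scalings are not given here, so whether the gap remained there was not tested.

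**Figure D4:**
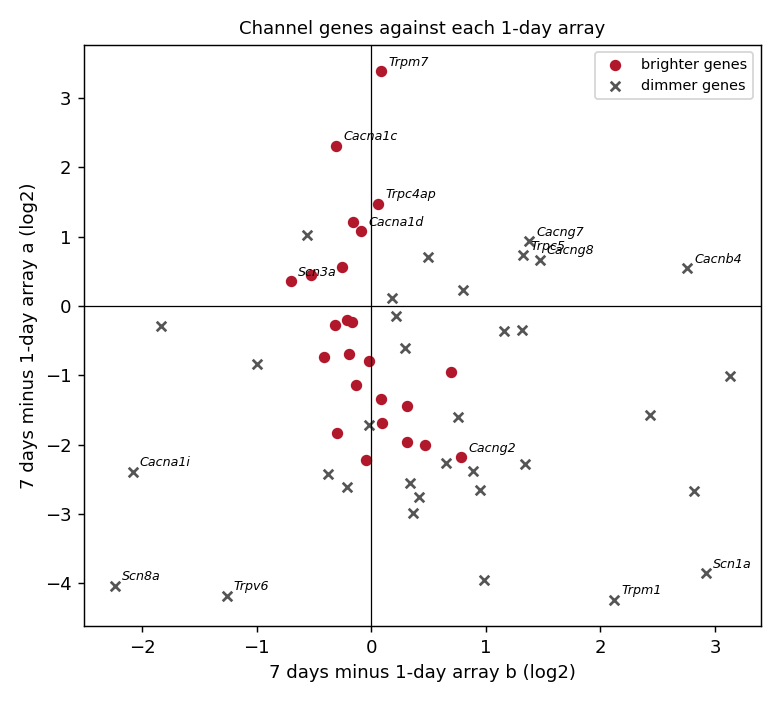
Difference of the 7-day array from 1-day array b (horizontal, log2) and from 1-day array a (vertical, log2) for the 24 brighter (circles) and 34 dimmer (crosses) channel genes. Both axes share the 7-day value, so the points show where each gene lay relative to the 1-day pair: 9 genes in the upper right quadrant, 17 in the lower left and 32 in the others.

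Agreement between probe sets of a gene was limited. Of 17 channel genes with more than 1 probe set, 8 had the same sign against 1-day array b on all of them. In the 5 with more than 1 brighter probe set, Cacnb1, Cacnb2 and Scn3b had the same sign, and Ryr2 and Trpm7 did not.

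Genes that act beside these channels were read from lists of the same pathway, and limma called 0 of their members. Acetylcholine receptor genes, which open the response of the chromaffin cell, had 5 of 10 members higher and 5 lower than 1-day array b (median -0.07). The nicotinic subunit Chrna3 read 8590, against 4904 on array a and 9864 on array b. Of 17 genes of calcium removal, store filling and store-operated entry, 7 were higher and 10 lower than array b (median -0.09). Among them Stim1, the calcium sensor of the store, read 3082, against 3367 and 3494, and Atp2b1, a calcium pump of the cell surface, 23276, against 26184 and 25730. Both lay below both 1-day arrays. Of 22 calcium-binding and channel partner genes, 14 were higher and 8 lower (median 0.16), with Gem, which binds calcium channel beta subunits, at 7088, against 3773 and 6255. Release machinery genes split 8 and 8 of 16 (median 0.01). Of 11 potassium channel genes 8 were higher and 3 lower (median 0.65), but 4 of the 11 were brighter. Kcnma1, the large calcium-activated potassium channel, read 9073, against 10652 and 10766, below both. Against array a all 5 lists had medians below 0: acetylcholine receptors -1.20 (8 of 10 lower) and calcium removal and stores -0.46 (12 of 17). Those of channel partners, release machinery and potassium channels were -0.58 (13 of 22), -0.73 (12 of 16) and -0.95 (9 of 11). Markers of endothelial cells (5 of 7 higher than array b), fat cells (4 of 6) and neurons (4 of 7) had medians of 0.09, 0.18 and 0.21. All 7 endothelial markers were brighter, but only 1 of 6 for fat cells and 1 of 7 for neurons. Against array a the 3 medians were 0.24, -1.77 and -1.65. Over all genes 53.8% read higher than array b and 46.2% lower, with a median of 0.04, and of -0.24 against array a. All dimmer genes had medians of 0.39 against array b and -1.75 against array a.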

How the data were processed

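RNA of 3 rat adrenal medulla samples had been measured on 1-colour oligonucleotide arrays. The deposited values are linear intensities, 1 for each probe set on each array, summarised and scaled by the authors with software that is not given in the sources used here. Each array had a 2% trimmed mean of 2501, so the arrays appear scaled to it, which hides differences in total RNA. Groups and replicate letters came from the titles. The members, gene lists and tests were chosen with earlier results of these data known.

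Intensities were turned into log2(intensity + 16). The 57 control probe sets were left out and no filter on dim probe sets was used. Symbols came from the platform annotation (20826 probe sets with 1 symbol, 436 with several, 9780 with none), and the lists of other genes were matched through the RefSeq gene table of GRCr8. One probe set with symbols of 2 TRP genes was left out. Intensities of different probe sets were set side by side only to choose 1 probe set per gene and to split the table at its median, and neither measures which transcript is more abundant.

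Limma (lmFit, eBayes with an intensity trend, two-sided, Benjamini-Hochberg over 31042 probe sets at 0.05) compared 7 days with 1 day. This takes the 7-day array to have the spread of the 1-day pair. With infinite prior degrees of freedom, each SE is the spread fitted at that intensity. Differences from 1-day array b or a alone have no test; called there means at least 2-fold.

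The naming rule took members that limma called, those at least 2-fold from 1-day array b, the 8 highest and 8 lowest outside both 1-day arrays, the highest and lowest brighter member of each role, and a fixed set of genes of which 32 of 34 were measured. It named 49 of 58, and the other 9 were named after their values were seen. The 4 genes whose promoters are shown were also chosen after their values were seen. Alternatives were pseudocounts of 1 and 64, quantile normalisation, median centring, subtraction of a loess fit on intensity (span 0.5), brighter probe sets only, the mean of all probe sets, limma with robust = TRUE or with no trend, and leaving out each 1-day array. R 4.3.3, limma 3.58.1, Python 3.11.15 and matplotlib 3.10.9 were used. Precision is limited by the number of arrays.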

Additional observations from a re-analysis of the deposited data

How the results depend on the processing

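Limma called 0 probe sets and 0 channel genes under all 8 other fits, where 31 to 183 probe sets had an unadjusted p under 0.05. Counts of channel genes at least 2-fold higher than 1-day array b moved to 6 (quantile normalisation) and 7 (loess fit subtracted), against 12, while the 4 lower became 5. Shares of all genes are given only for the scaling as deposited (9.98% higher and 4.68% lower). All 16 kept their sign under the 4 scalings, but they were picked for their size under the scaling as deposited, so this lends no support. The sign was kept by 20 of 24 brighter genes and by 28 of 34 dimmer genes, which include the 16. With brighter genes only, 0 were at least 2-fold from array b in either direction and 0 at least 2-fold below both 1-day arrays, with 9 higher and 15 lower than array b. Channel genes at least 2-fold above both 1-day arrays were 0 as scaled (0.872% of all genes), 1 with quantile normalisation, 1 with the trend removed and 4 with median centring. The median against array b, 0.20, became -0.06 under quantile normalisation, -0.04 after the loess fit and 0.02 after median centring, and that of all gene probe sets 0.00, 0.00 and -0.10 in place of 0.08.

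Leaving out a 1-day array gives values with no test. The median difference was 0.20 without array a and -0.98 without array b, against -0.43. The genes at least 2-fold higher numbered 12 without array a (9.98% of all genes) and 6 without array b, and those lower 4 (4.68%) and 29. For the counts without array b the share of all genes is not given here. Of the dimmer genes, 26 of 34 channel genes and 3987 of all 4819 read lower than array a. Of the brighter genes, 16 of 24 channel genes and 4105 of all 9398 did. Relative to the averaged 1-day values, 18 of 49 named genes changed sign without array a and 6 without array b. Of these, 5 had stood at least 2-fold from that average. Without array a and without array b, Cacna1c stood at -0.30 and 2.31, Cacna1e at 0.98 and -3.95, Scn2a at 0.34 and -2.56, Trpm1 at 2.12 and -4.24, and Cacng4 at 3.13 and -1.01. Of the other values of named genes, over all the alternatives, 654 moved by less than the spread of the 1-day pair and 73 by more. The 654 include values that could not have moved by more: 45 without array a, 48 without array b and 46 with brighter probe sets only. Leaving out a 1-day array cannot move a difference past that spread. The brighter-only values are unchanged, as are averages for genes with 1 probe set. The causes were not tested. No paired analysis was possible because the groups share a single replicate letter. With 1 residual degree of freedom and 1 array at 7 days, small differences of the brighter genes could not be told from array-to-array spread.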
